A study of Mus musculus with 4 samples.

Results

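The sterol and fatty acid synthesis genes are 31 genes that the sterol regulatory element-binding proteins (SREBPs) act through or act on. They were listed by name and read in pathway order, and all 31 were found among the 55385 genes measured. Bulk RNA was sequenced from 4TO7 cells, a mouse mammary carcinoma line, recovered from tumors in Balb/c mice. Of the 4 libraries, 2 are labelled as resistant to immunotherapy (anti-PD-L1, which blocks a checkpoint ligand on tumor cells) and 2 as control. The treatment label of all 4 samples reads untreated, whereas their treatment protocol names anti-PD-L1 in vivo, so what the control tumors received is not resolved. Tumors had been digested with hyaluronidase, collagenase, dispase and DNase, and the cells were harvested in culture medium before RNA extraction. Nothing in the labels ties a library to an animal, and the p-values therefore reflect no more than the spread among these 4 libraries, which may be technical.

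SREBPs are membrane-bound transcription factors of the endoplasmic reticulum. When sterols are scarce, the escort protein Scap carries them to the Golgi, where proteases release the active factor, and when sterols are plentiful Insig proteins hold Scap back. SREBP2 acts mainly on cholesterol synthesis and uptake and SREBP1 mainly on fatty acid synthesis. The target genes of each factor are known for moving together.

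The libraries held 45666470 to 49592054 counted reads. Values below are normalized counts, meaning reads divided by the authors' size factor for each library, and differences are log2 fold changes, resistant minus control, ± SE from limma. A gene was called at a Benjamini-Hochberg adjusted p under 0.05 over the 14238 genes whose mean reached 10 normalized counts. The keratins Krt8 and Krt18, markers of the labelled carcinoma cells, had 12649 to 42630 normalized counts in each library and were not called, while Krt5 and Krt14 were at 0. Of the 8 epithelial markers, 6 were tested, 2 rose and 1 fell: Krt19 rose with 298 and 425 against 48.0 and 41.4 normalized counts (log2 fold change 2.97), Krt7 rose with 90.7 and 135 against 34.6 and 24.2 (1.90), and Epcam fell with 87.6 and 114 against 341 and 246 (-1.53). Of the other cells a digested tumor could hold, 9 adipocyte markers summed to 66.2 and 80.4 normalized counts in the resistant libraries and 47.1 and 27.2 in the controls, with Lep and Cfd at 0 and the highest, Fabp4, at 51.0 and 60.1 against 35.5 and 10.1. 10 leukocyte markers summed to 409 and 411 against 811 and 433, nearly all of it S100a8, and Nkg7 was at 0. 7 endothelial markers summed to 171 and 233 against 80.7 and 48.4, with Cldn5 at 0. The highest of them was Vwf, which rose with 153 and 211 against 46.1 and 22.2 (2.45), while Pecam1 had 13.2 and 12.9 against 21.1 and 15.1 (-0.43) and did not pass. 8 fibroblast markers summed to 8024 and 9561 against 10168 and 6830, with Dpt at 0. Most of that sum was Pdgfra, which was not called (0.12), whereas Dcn fell with 163 and 143 against 763 and 483 (-1.99). The part of these markers in the results below was not tested, and in bulk samples fewer cells of a type and less RNA per cell cannot be told apart.

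The pathway did not move as a block. Of the 31 genes, 1 rose in resistant cells, the squalene epoxidase gene Sqle, and 0 fell, by limma with Benjamini-Hochberg adjustment. At an unadjusted p under 0.05 there were 6 higher and 3 lower, where 26.4% of all tested genes were below that p, and limma voom on the recovered reads also called 1 higher and 0 lower. All 31 passed the filter on low values. The share called, 3.23%, compares with 10.1% of all tested genes (5.32% higher and 4.73% lower). The median log2 fold change of the 31 was 0.02, beside 0.00 over all tested genes, and their median absolute change was 0.18 beside 0.22. The signs were divided, 16 positive and 15 negative, and 15 and 16 under scaling to the total count or to the upper quartile.

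The intervals describe the spread among these libraries and do not bound a difference between resistant and control tumors in general. For 28 of the 31 genes the 95% interval of the fold change (not adjusted for the number of genes) lay within 2-fold in both directions, which held for 73.0% of all tested genes. The exceptions were Acat2, Idi1 and Sqle. Within 1.5-fold lay 18 of the 31, against 47.4% of all. The groups did not overlap for 21 of the 31 genes, 12 with both resistant libraries above both controls and 9 below, where 56.7% of all tested genes did not overlap. Summed over the 31 genes, the pathway took 0.279% and 0.274% of reads in the resistant libraries and 0.280% and 0.275% in the controls. Its total share was thus much the same in every library. Most of it came from the fatty acid genes, at 0.161% and 0.166% against 0.171% and 0.171%. The genes from squalene to cholesterol, Sqle among them, took 0.0483% and 0.0411% against 0.0351% and 0.0348%. In every other role, the shares of both resistant libraries lay below both controls. As summed normalized counts, the groups overlapped for the SREBP factors and their control (25477 and 25532 against 27409 and 24793). They also overlapped for fatty acid synthesis (77085 and 81208 against 81273 and 79480). From mevalonate to squalene they stayed apart by little (7770 and 7192 against 8099 and 7775). The separation in these roles thus depended on the scaling or was narrow.

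**Figure D1:**
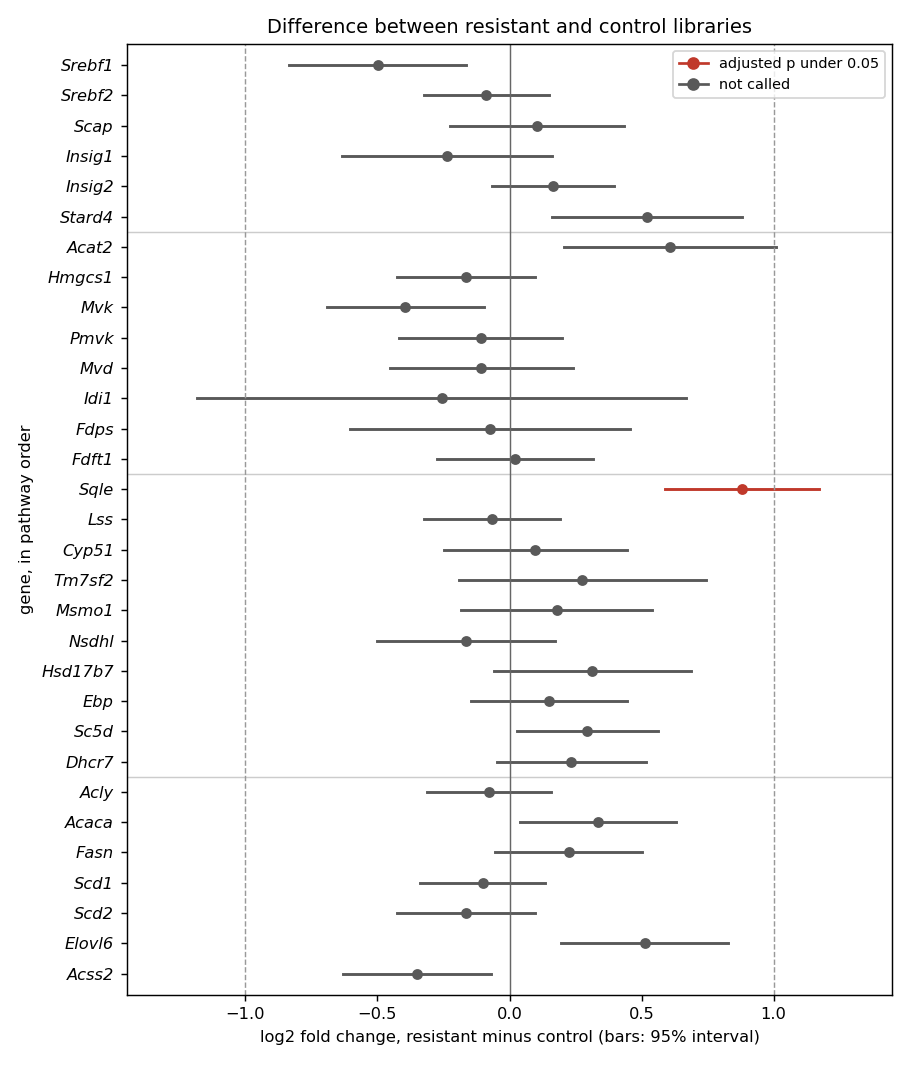
Log2 fold change, resistant minus control, of the 31 genes in pathway order with 95% intervals (bars), from limma on 2 libraries a group. Grey lines part the 4 roles and dashed lines mark a 2-fold change. Sqle (red, 0.88) is the only gene called, and most other intervals cross 0.

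The number of members called changed with the library left out, and so did the number over all tested genes. With control replicate 1 left out, 4 rose and 1 fell (16.1% of the 31, against 22.5% of all tested genes), and with control replicate 2 left out 6 rose and 4 fell (32.3% against 28.6%). With resistant replicate 1 left out limma called 0 (3.06% of all tested genes), and with resistant replicate 2 left out it called Sqle alone (2.91%). In these fits the group left with 1 library is assumed to vary like the other group. The log2 difference within a pair had an SD of 0.31 for the resistant and 0.45 for the control libraries, over all tested genes. Without a control library the spread therefore came from the resistant pair alone. Sqle was also the only member called under a pseudocount of 10 (10.2% of all tested genes called), a pseudocount of 0.5 (9.96%), a mean of at least 100 (8.84%), upper-quartile scaling (9.88%), robust moderation (9.9%), voom (9.72%) and a block on the replicate number (8.52%). Scaling to the total count (10.2%) added Srebf1, a block on the crossed numbers (32.2%) gave 7 higher and 3 lower members, and 0 were called with no filter on low values (1.16%).

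The regulators came out with values on both sides of 0 and no call. Srebf1, the gene of SREBP1 (ENSMUSG00000020538.15, chromosome 11, 60199089 to 60222581 on GRCm38), had 2945 and 3399 normalized counts in the resistant libraries and 5033 and 3975 in the controls. Both resistant libraries lay below both controls, by a log2 fold change of -0.50 ± 0.14 that did not pass (adjusted p = 0.0727). It passed under scaling to the total count (-0.54, adjusted p = 0.0468). The difference lay between -0.67 and -0.33 with a library left out. Srebf2, the gene of SREBP2 (ENSMUSG00000022463.8, chromosome 15, 82147181 to 82205379), had 7686 and 7176 against 7918 and 7862, a difference of -0.09 ± 0.10 with an interval of -0.32 to 0.15. Its 4 values were close together.

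Scap, the escort, had 2875 and 3354 against 3209 and 2600.1 normalized counts (0.10 ± 0.14), and the groups overlapped. Insig1, a retention protein gene that is itself an SREBP target, had 2000.4 and 2073 against 2871 and 2007. Control replicate 1 stood alone above the other 3 libraries. The difference was -0.24 ± 0.17 and reached -0.50 (adjusted p = 0.00166) only when control replicate 2 was left out. Insig2, the second retention protein gene, had 8098 and 7972 against 7306 and 7029, with both resistant libraries slightly above (0.17 ± 0.10, adjusted p = 0.338). Stard4, which encodes a soluble carrier of cholesterol between membranes, had 1873 and 1558 against 1073 and 1321. Both resistant libraries were above both controls, and the difference of 0.52 ± 0.15 did not pass (adjusted p = 0.0791). Without control replicate 1 or 2 the difference was 0.37 and 0.67.

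**Figure D2:**
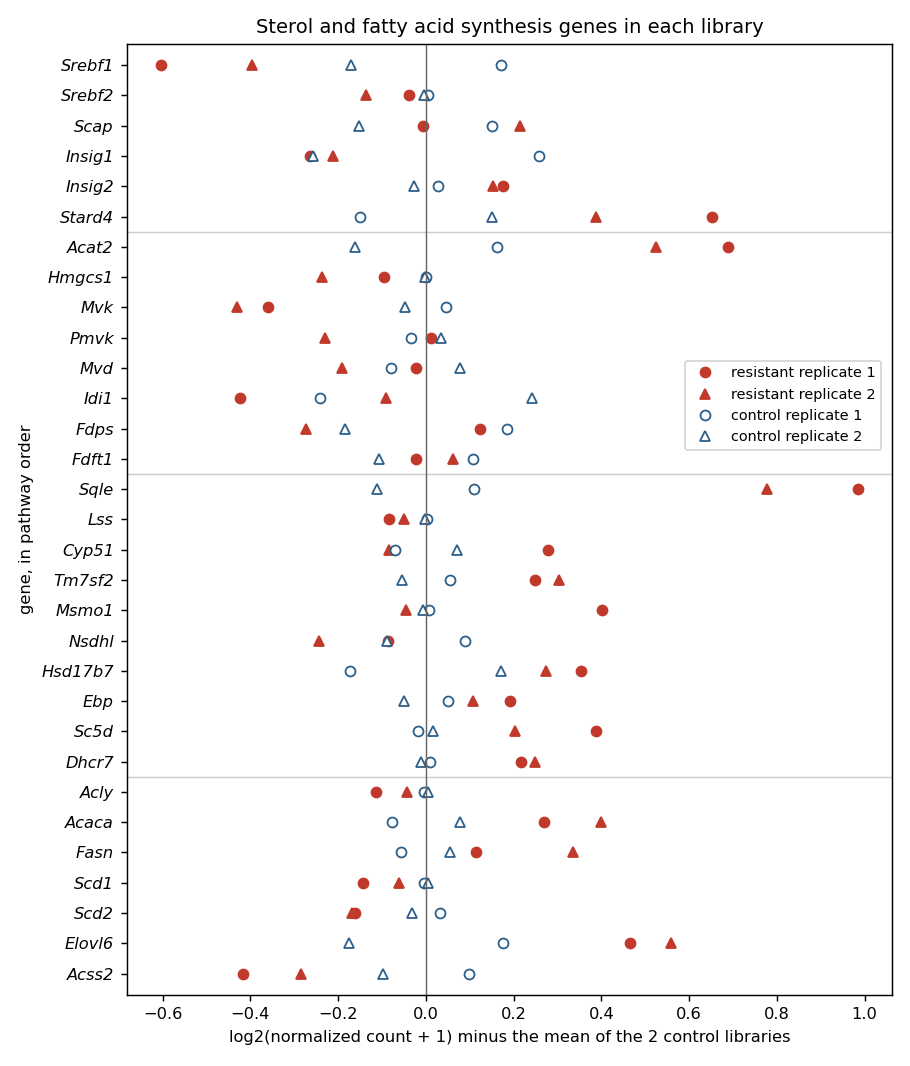
Each library's log2(normalized count + 1) for the 31 genes, less the mean of the 2 control libraries, with resistant libraries in filled red and controls in open blue. Sqle stands apart at 0.78 and 0.98 above the control mean, while for 10 genes the groups overlap.

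Promoters show elements that many of these genes share. Windows from 250 bases before to 50 after the start were at hand in RefSeq (GRCm38.p6) for 25 of the 31 genes, 33 windows in all, leaving out Stard4, Fdps, Fdft1, Sqle, Scd1 and Scd2. Letters were searched on both strands, and no motif contains another. The sterol regulatory element TCACNCCAC was in 1 of the 25 genes, Hmgcs1 (4.0%, against 1.44% of 27025 genes). The NF-Y box CCAAT was in 21 (84.0% against 41.1%), the GC box GGGCGG in 21 (84.0% against 38.2%) and the E-box CACGTG in 5 (20% against 8.09%). Counted by window, the NF-Y box was in 66.7% against 37.4% and the GC box in 75.8% against 35.7%. NF-Y and Sp1, the factor of GC boxes, are known partners of SREBPs at promoters. A match of letters is a description and not a site. The 27025 genes were all those with a window, whether or not they were expressed here, while the members all passed the filter on low values. The part of this difference in the shares was not tested. Up to 250 bases before the RefSeq start, ending before the GENCODE gene begins, are printed for 3 genes, chosen after their values were seen: Hmgcs1 for its sterol regulatory element, Mvk for the most NF-Y boxes, and Elovl6, the member closest to the threshold among those not called, whose window holds none of the 4 motifs. Capitals mark the sterol regulatory element (TCACCCCAC, 137 to 129 bases before the start of Hmgcs1) and the NF-Y boxes on either strand.
Hmgcs1, chr13:119690101-119690350, plus strand: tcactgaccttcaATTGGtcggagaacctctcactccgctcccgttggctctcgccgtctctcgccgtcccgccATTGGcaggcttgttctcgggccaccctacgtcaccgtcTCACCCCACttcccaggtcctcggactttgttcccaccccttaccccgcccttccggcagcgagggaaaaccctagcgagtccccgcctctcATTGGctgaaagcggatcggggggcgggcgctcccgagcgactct
Mvk, chr5:114444019-114444268, plus strand: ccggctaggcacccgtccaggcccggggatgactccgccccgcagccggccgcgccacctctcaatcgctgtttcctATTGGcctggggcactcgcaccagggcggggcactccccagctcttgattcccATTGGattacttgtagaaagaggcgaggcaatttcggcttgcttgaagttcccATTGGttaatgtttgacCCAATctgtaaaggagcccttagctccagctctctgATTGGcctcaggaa
Elovl6, chr3:129532136-129532354, plus strand: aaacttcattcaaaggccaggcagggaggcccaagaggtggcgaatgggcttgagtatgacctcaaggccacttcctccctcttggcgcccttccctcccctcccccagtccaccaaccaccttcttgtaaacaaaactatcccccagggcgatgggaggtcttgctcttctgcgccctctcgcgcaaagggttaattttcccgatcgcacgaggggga

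The mevalonate arm, which builds squalene from acetyl-CoA, held 8 genes and no call, with 2 positive and 6 negative values and a median of -0.11. Acat2, the cytosolic acetyl-CoA acetyltransferase that starts the arm, had 663 and 592 normalized counts in resistant and 460.1 and 367 in control libraries. Resistant libraries were above controls by 0.61 ± 0.17, which missed the threshold (adjusted p = 0.0699). The difference lay between 0.44 and 0.77 with a library left out. Acat2 shares 39.1% of its 50-base stretches with its neighbour Acat3, so its reads are uncertain, and Acat3 itself had 3.22 to 12.5 normalized counts.

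Hmgcs1, HMG-CoA synthase (ENSMUSG00000093930.2, chromosome 13, 119690379 to 119708260), whose promoter is printed above, had 2249 and 2040.1 against 2404 and 2400.4. The controls were nearly equal and the resistant libraries a little lower (-0.17 ± 0.11, interval -0.43 to 0.10). Mvk, mevalonate kinase, had 869 and 827 against 1152 and 1079, with both resistant libraries below. Its difference of -0.39 ± 0.13 did not pass (adjusted p = 0.0987), and lay between -0.44 and -0.35 with a library left out. The next kinase, Pmvk, and the decarboxylase Mvd differed by -0.11 ± 0.13 and -0.11 ± 0.15, with overlapping groups. Fdft1, squalene synthase, had 1612 and 1709.7 against 1763 and 1519.9 normalized counts and a difference of 0.02 ± 0.13. Its exons share 774 bases with those of the protease gene Ctsb on the opposite strand, which had 95771 to 113888 normalized counts, and the sources used here do not give the strand setting of the counting. The value of Fdft1 is therefore uncertain.

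The remaining pair of the arm had few reads. Idi1, isopentenyl diphosphate isomerase, had 14.3 and 18.2 against 16.3 and 23.2 normalized counts, and its interval of -1.18 to 0.67 was the widest of the 31. Fdps, farnesyl diphosphate synthase, had 248.7 and 189 against 259 and 201, with an interval of -0.60 to 0.46. Idi1 shares 25.3% of its 50-base stretches with 5 other annotated genes, and Fdps 26.2% with 8, among them Gm43738 (0 reads in all libraries), whose exons overlap it on the same strand. The sources used here do not give how reads of such stretches were counted.

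Past squalene, the arm that ends in cholesterol held the only call. Sqle, which adds the oxygen that lets squalene close into a sterol (ENSMUSG00000022351.14, chromosome 15, 59315077 to 59331192), had 9048 and 7847 normalized counts in the resistant libraries and 4939.6 and 4236 in the controls. Both resistant values exceeded both controls by a wide margin. The mean went from 4588 ± 498 to 8448 ± 849 (SD, n = 2), a log2 fold change of 0.88 ± 0.13 (adjusted p = 0.00678), or 1.84-fold with a 95% interval of 1.5 to 2.26. Without resistant replicate 1 the value was 0.78 and missed the threshold (adjusted p = 0.0526), as it did with no filter on low values (adjusted p = 0.0580). Only 0.0358% of its 50-base stretches occur in another gene.

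The neighbours of Sqle on chromosome 15 were high as well. Of 44 other tested genes that start within 5 Mb on each side, 15 rose and 2 fell, and 34 had positive values. Of all 14238 tested genes 5.32% rose, 4.73% fell and 7162 had positive values. The median log2 fold change of the 44 was 0.42, beside 0.00 for all tested genes. Sqle lay 0.46 above that median, and 3 of the 44 neighbours had values at or above its own. They are Has2, a hyaluronan synthase gene (1.23), Tbc1d31 (1.00) and Deptor, an mTOR inhibitor gene (0.96), named after their values were seen. The part of the position in the rise of Sqle was not tested. Srebf2 lies on the same chromosome beyond that window.

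**Figure D3:**
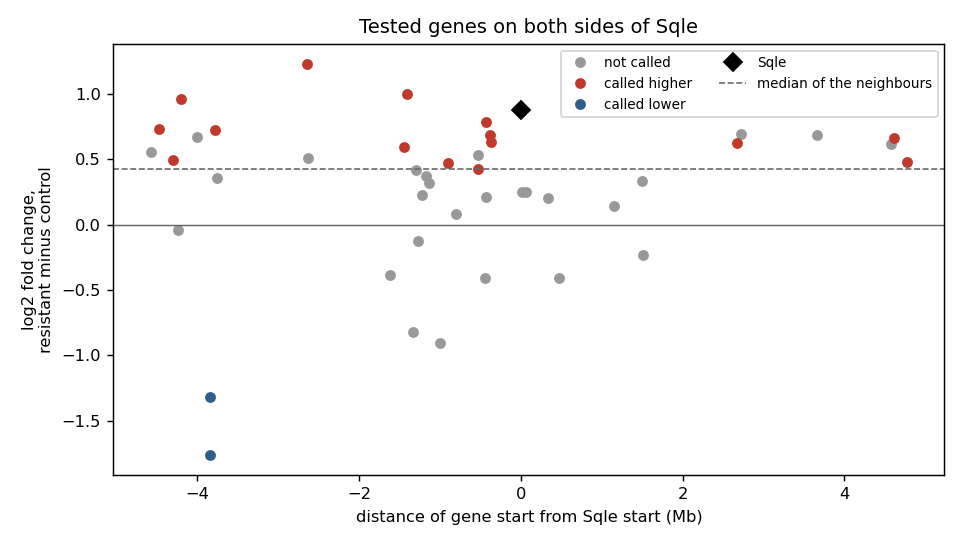
Log2 fold change, resistant minus control, of 44 tested genes against the distance of their start from that of Sqle on chromosome 15, in Mb. Points are genes, red called higher and blue called lower, and the dashed line is their median of 0.42. Most points lie above 0 on both sides of Sqle (black diamond).

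The other 9 genes of this arm did not pass. Summed without Sqle, they had 14092 and 12289.8 normalized counts in resistant and 11780.3 and 11955 in control libraries, close but without overlap. As shares of reads these were 0.0294% and 0.0251% against 0.0247% and 0.0257%, where the groups overlapped. The separation thus depended on the scaling. Lss, the cyclase that acts directly after Sqle, had 1659 and 1698 against 1761 and 1756 (-0.07 ± 0.11, interval -0.33 to 0.19). Cyp51, the lanosterol demethylase, had 2184 and 1697 against 1713 and 1891 (0.10 ± 0.15), with overlapping groups. Tm7sf2, a sterol reductase gene, had 168 and 175 against 147 and 136 (0.28 ± 0.20), and 12.1% of its exon bases overlap Vps51 on the same strand.

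For Msmo1, the C4-methylsterol oxidase, resistant replicate 1 stood alone at 3126 normalized counts, with 2293 in resistant replicate 2 and 2377 and 2356 in the controls (0.18 ± 0.16). Nsdhl, the X-linked sterol dehydrogenase that acts after it, had 750.04 and 673 against 847 and 749 (-0.17 ± 0.14). Hsd17b7, the ketosteroid reductase of the same complex, had 853 and 808 against 593 and 752. Its difference of 0.31 ± 0.16 did not pass (adjusted p = 0.262), and lay between 0.14 and 0.49 with a library left out.

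The late enzymes Ebp, Sc5d and Dhcr7 were slightly above control in both resistant libraries. The sterol isomerase gene Ebp had 1123 and 1059 against 1017 and 949 (0.15 ± 0.13). Sc5d, the sterol desaturase, had 3049 and 2681 against 2304 and 2358, a difference of 0.29 ± 0.11 (adjusted p = 0.155). Dhcr7, which finishes cholesterol by one of its routes, had 1180.1 and 1207 against 1022 and 1008 (0.23 ± 0.12, adjusted p = 0.267). None of these was called in any fit with a library left out.

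The fatty acid genes also held no call among 7, with 3 positive and 4 negative values and a median of -0.08. The groups did not overlap in any of the 7, where 56.7% of all tested genes did not overlap. Elovl6, which lengthens palmitate to stearate (ENSMUSG00000041220.10, chromosome 3, 129532355 to 129638495), came closest to the threshold. It had 6316 and 6732 normalized counts in resistant and 5164 and 4049 in control libraries, a log2 fold change of 0.51 ± 0.14 (adjusted p = 0.057), or 1.43-fold with an interval of 1.14 to 1.78. Its difference lay between 0.34 and 0.69 with a library left out.

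Of the enzymes that supply and build palmitate, Acly, which makes cytosolic acetyl-CoA from citrate, had 8890.4 and 9336 against 9581 and 9644 (-0.08 ± 0.10). Acss2, which makes it from acetate, had 2194 and 2403 against 3136 and 2735. Both resistant libraries were below, by -0.35 ± 0.12 (adjusted p = 0.115). The difference lay between -0.45 and -0.25 with a library left out. Acaca, acetyl-CoA carboxylase, had 1417 and 1549.9 against 1113 and 1239.5. Its difference was 0.33 ± 0.13 (adjusted p = 0.146), and lay between 0.26 and 0.41 with a library left out. Acaca shares 29.2% of its 50-base stretches with Gm5182, which had 10.6 to 15.1 normalized counts, so its reads are uncertain. Fasn, fatty acid synthase, had 15331 and 17869 against 13633 and 14733 (0.22 ± 0.12, adjusted p = 0.282), with both resistant libraries above.

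The desaturases were close between groups. Scd1, stearoyl-CoA desaturase, had 10000.2 and 10571 against 11000.2 and 11076 (-0.10 ± 0.10, interval -0.34 to 0.13), and its paralog Scd2 had 32937 and 32747 against 37643 and 36003 (-0.16 ± 0.11, interval -0.42 to 0.10). In both genes the resistant libraries lay below the controls. Both lie on chromosome 19, and 2.66% of the 50-base stretches of Scd2 occur in Scd1.

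Levels between genes were compared per length, as normalized counts per kilobase of exon over both groups. The length was that of all annotated exons of a gene merged, not of a single transcript. Scd2 was highest at 6375, followed by Insig2 at 2189, Scd1 at 2179, Acly at 1774 and Fasn at 1406. Insig2 and Scd1 could not be ordered, since Insig2 was higher in resistant libraries (2313 against 2103) and lower in controls (2064 against 2256). The place of Sqle in that order changed with the group. In controls, at 827 per kilobase, it lay below Fasn (1296), Srebf2 (1098) and Pmvk (845), and in resistant cells, at 1523, it lay beside Fasn (1516) and above Srebf2 (1034). Insig2 exceeded Insig1 (724) and Srebf2 (1066) exceeded Srebf1 (681) in both groups. The lowest were Fdps at 53.3, Tm7sf2 at 35.6 and Idi1 at 5.14. Each of these shares stretches or exon bases with other genes, as given above, so their levels are uncertain. Mvd, which acts before Idi1, was at 346, and Cyp51 and Msmo1, which stand beside Tm7sf2 in the pathway order, were at 424 and 413.

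**Figure D4:**
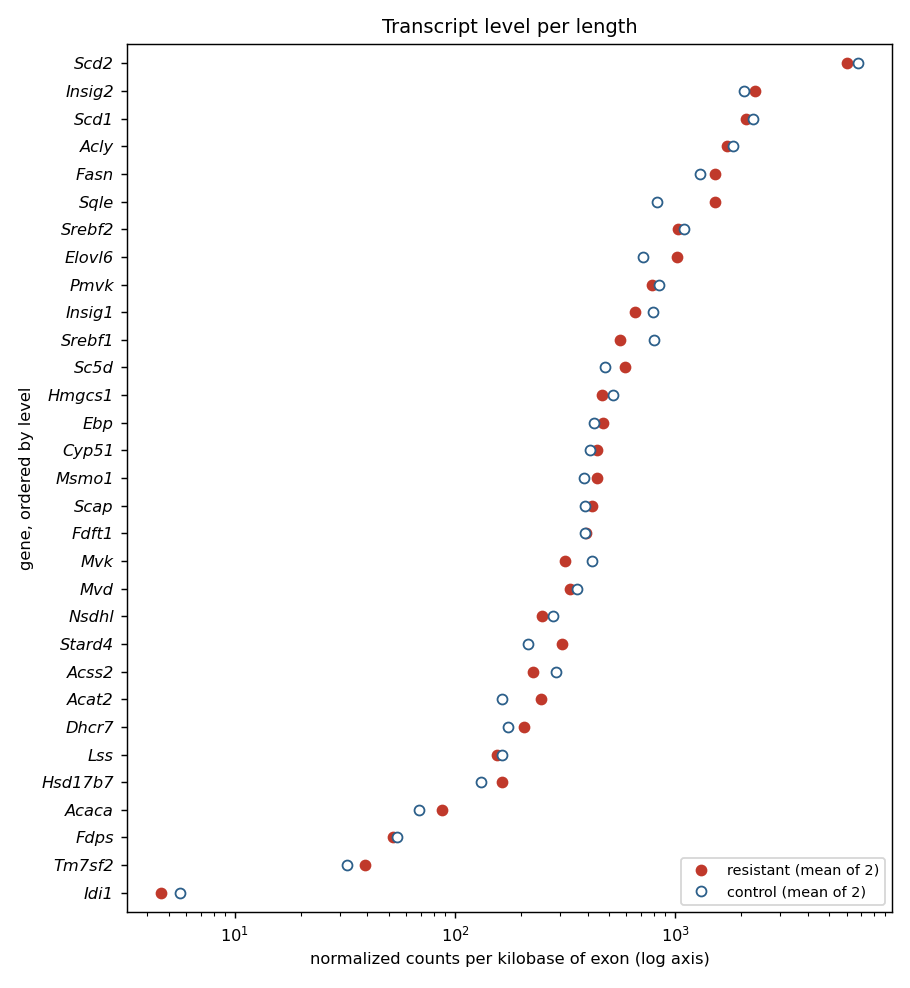
Mean normalized counts per kilobase of exon (log axis) of the 31 genes in resistant (filled red) and control (open blue) libraries, ordered by the mean of both. Levels span Idi1 at 5.14 to Scd2 at 6375, and the 2 groups lie close for nearly every gene, with Sqle among the widest gaps.

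Further genes of lipid metabolism were read from 8 lists, 154 genes of which 135 were tested. Together 9 rose and 6 fell (11.1% called, against 10.1% of all tested genes), with a median of -0.01. Beside the unadjusted counts below, 13.8% of all tested genes were higher and 12.6% lower at that threshold. Of 7 tested genes in the list of remaining sterol synthesis enzymes 0 were called by limma, and 0 were higher and 1 lower at an unadjusted p under 0.05, with a median of -0.08. The non-sterol isoprenoid branch, which makes lipid anchors, dolichol and ubiquinone, likewise held 0 calls among 14, with 1 at an unadjusted p under 0.05 and values of -0.15 to 0.29.

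Among 13 genes that control SREBP processing and sterol-regulated protein turnover, 1 rose and 0 fell by limma, with 2 higher and 2 lower at an unadjusted p under 0.05. Mbtps2, the X-linked site-2 protease gene whose product releases active SREBPs in the Golgi, had 7147 and 7567 normalized counts in resistant and 4549 and 4795 in control libraries (0.65 ± 0.10, adjusted p = 0.00943). Its groups were well apart, but without resistant replicate 1 or 2 the adjusted p was 0.0726 and 0.125. Faf2, which helps extract membrane proteins of the endoplasmic reticulum for degradation, had 4424 and 4187 against 5586 and 5704. It lay below control without passing (-0.39 ± 0.10, adjusted p = 0.0523), and passed under a pseudocount of 10 (adjusted p = 0.0493) and both other scalings.

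Of 14 tested genes of lipoprotein uptake and cholesterol transport, 1 rose and 1 fell, and 12 had negative values, as did 7076 of all 14238 tested genes, with a median of -0.26. At an unadjusted p under 0.05 there were 1 higher and 6 lower, where 13.8% and 12.6% of all tested genes were. The share called was 14.3%, against 10.1% of all tested genes. Gramd1c, of a family that moves cholesterol from the plasma membrane to the endoplasmic reticulum, fell from 431 and 393 to 167 and 168 (-1.29 ± 0.18, adjusted p = 0.0055). Its relative Gramd1b rose, with 3074 and 3425 against 2347 and 2302 (0.48 ± 0.11, adjusted p = 0.0364). The call of Gramd1b ended without resistant replicate 1 or 2 (adjusted p = 0.183 and 0.382), whereas that of Gramd1c held with either left out.

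Genes of LXR signalling and cholesterol efflux held 2 falls and 0 rises among 11 tested in limma, with 2 lower and 0 higher at an unadjusted p under 0.05. The share called was 18.2%, against 10.1% of all tested genes. Abca1, the exporter of cholesterol to apolipoproteins and a target of the sterol-sensing receptor LXR, had 1314 and 1611 normalized counts in resistant and 2713 and 2536 in control libraries (-0.85 ± 0.13, adjusted p = 0.00988). The transporter gene Abcg1, also an LXR target, had 3.06 and 6.44 against 28.8 and 26.2 (-2.37 ± 0.47, adjusted p = 0.023). The groups were far apart in both genes. Both calls ended without resistant replicate 1 (adjusted p = 0.0909 and 0.146). The LXR alpha gene Nr1h3 did not pass (-0.52 ± 0.23, adjusted p = 0.195).

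In the list of further fatty acid synthesis, elongation and desaturation genes, 1 rose and 1 fell of 23 tested, with 4 higher and 1 lower at an unadjusted p under 0.05. The share called was 8.7%, against 10.1% of all tested genes. Mlxipl, the gene of ChREBP, a glucose-responsive activator of lipid synthesis genes, fell from 373 and 224 normalized counts in control to 49.9 and 45.0 in resistant libraries (-2.58 ± 0.29, adjusted p = 0.00236). This call held with any library left out. Elovl7, an elongase gene, had 995 and 1197 against 630.2 and 492 (0.97 ± 0.17, adjusted p = 0.0155), a rise that missed the threshold without resistant replicate 2 (adjusted p = 0.149). Elovl5, which elongates polyunsaturated fatty acids, had 9704 and 8983 against 6667 and 7427 (0.41 ± 0.11) and did not pass (adjusted p = 0.0597).

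Of 29 tested genes of triglyceride and phospholipid assembly and lipid droplets, 3 rose and 1 fell, with 6 higher and 5 lower at an unadjusted p under 0.05. The share called was 13.8%, against 10.1% of all tested genes. Dgat2, which makes triglyceride, had 770.4 and 724 against 487 and 481 normalized counts (0.62 ± 0.14, adjusted p = 0.034). The lipases Pnpla8 (0.55 ± 0.12, adjusted p = 0.0347) and Mgll (1.85 ± 0.39, adjusted p = 0.0264) rose as well, the latter at only 31.6 and 40.8 against 10.6 and 8.07 normalized counts. The droplet coat gene Plin4 fell, with 48.9 and 83.7 against 183 and 143 (-1.32 ± 0.31, adjusted p = 0.0382). All 4 calls ended without resistant replicate 1, with adjusted p of 0.373, 0.373, 0.141 and 0.308, and those of Dgat2, Pnpla8 and Mgll also without resistant replicate 2 (0.259, 0.212 and 0.252).

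Fatty acid oxidation, the opposing pathway, had 3 rises and 1 fall among 25 tested genes, with 5 higher and 3 lower at an unadjusted p under 0.05 and a median of 0.01. The share called was 16%, against 10.1% of all tested genes. Ppargc1a, a coactivator of mitochondrial genes, rose from 193 and 341 normalized counts in control to 1009 and 1088 in resistant libraries (2.03 ± 0.26, adjusted p = 0.00405), and this call held with any library left out. The isomerase gene Eci1 had 1400.2 and 1346 against 874 and 783 (0.73 ± 0.13, adjusted p = 0.0147). Cpt1a, which admits fatty acids to mitochondria, fell, with 2198 and 2594 against 4047 and 3228 (-0.60 ± 0.15, adjusted p = 0.0435), while its low paralog Cpt1c rose (1.25 ± 0.31, adjusted p = 0.0482). The calls of Eci1, Cpt1a and Cpt1c ended without resistant replicate 1 (adjusted p = 0.165, 0.332 and 0.442) and without resistant replicate 2 (0.133, 0.105 and 0.246).

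**Figure D5:**
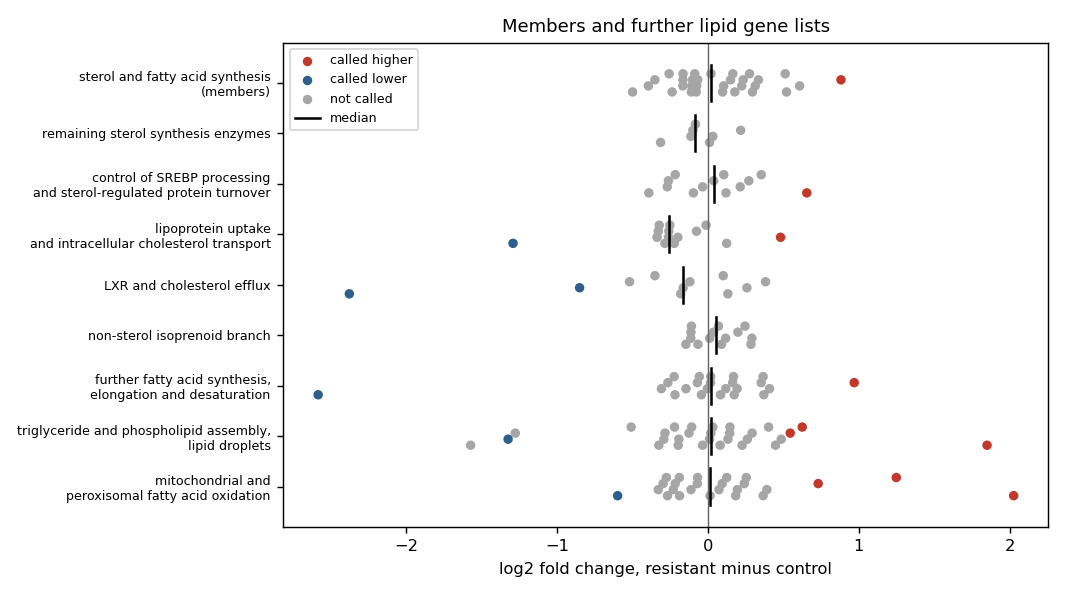
Log2 fold change, resistant minus control, of the 31 genes (top) and of the tested genes in 8 further lipid lists. Each point is a gene, red called higher, blue called lower, grey not called, and black ticks mark the list medians. The 31 genes lie between -0.50 and 0.88, and the lowest and highest points are Mlxipl (-2.58) and Ppargc1a (2.03).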

How the data were processed

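RNA sequencing of 4 libraries was used. The authors deposited log2 values, and the submitters' processing notes name STAR, DESeq2 and mm10 without versions. Unlogged values less 1 were whole multiples of a library's smallest step for 100% of entries above 0 (tolerance 0.01 reads), so each value is log2 of a count over a size factor, plus 1, and reads and depth were recovered. The plan had assumed unlogged values. Groups came from the source labels and columns from titles. Symbols and coordinates were joined on the identifier without version for 55144 genes (GENCODE M21, GRCm38). limma 3.58.1 under R 4.3.3 (lmFit, then eBayes with trend) took the log2 values unchanged for genes averaging 10 or more normalized counts, with no replicate term. Their pseudocount of 1 understates changes of low genes. The fit was also run on simulated reads given the same spread in both groups, unlike these libraries, and no result here rests on it. Motifs and 50-base stretches shared between genes (GENCODE transcripts, both strands) were counted in Python 3.11.15.

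Members and lists were chosen with earlier results of these data known. The named genes are all 31 members, up to 4 genes of each further list by smallest p, up to 3 of each marker list by level with those at 0, and genes needed to explain these. The called markers outside these 3 were named after their values were seen. The alternatives changed the pseudocount, the filter, the scaling or the moderation, used voom or a replicate block, or left a library out. The crossed block was added after the data were seen. Some genes that the rule names are not reported here.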

Additional observations from a re-analysis of the deposited data

How the results depend on the processing

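Over all genes, 758 were called higher and 674 lower. These became 126 and 185 with no filter on low values, and 539 and 444 with a mean of at least 100. Scaling to the upper quartile moved the share of higher calls from 52.9% to 41.0% (577 higher, 830 lower), and the median of all genes by under 0.1. With a library left out, genes called higher ranged from 146 to 2074 and lower from 234 to 1993, members called higher from 0 to 6 and lower from 0 to 4. Among the members, Sqle was called in all but 2 of the 14 alternatives, the exceptions being with no filter, where members called higher numbered 0 by limma (adjusted p = 0.0580), and without resistant replicate 1. Scaling to the total count gave 1 member called lower, Srebf1. The replicate numbers only name samples: deviations of same-numbered libraries correlated at r = -0.36, and with a replicate block 628 genes were called higher and 585 lower, with Sqle still called (0.88) and 1 member higher and 0 lower. A block on the crossed numbers (resistant 1 with control 2), chosen after seeing the data, gave 2402 genes higher and 2182 lower, with 7 members higher and 3 lower. The block on the numbers as labelled ended 4 of 15 calls in the further lists, those of Gramd1b, Cpt1c, Dgat2 and Pnpla8. No named value changed sign where it was called. The cause of these changes was not tested. With no filter, 2 of the 15 calls in the further lists remained, Mlxipl and Gramd1c. Low counts limit Idi1, Abcg1 and Mgll.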
